A study of Mus musculus with 25 samples.

Results

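The UDP-glucuronosyltransferase (UGT), cytosolic sulfotransferase (SULT) and carboxylesterase (CES) genes were followed in mouse hepatocytes during 6 weeks on a diet given to cause fatty liver inflammation, non-alcoholic steatohepatitis (NASH). The genes were picked by symbol, leaving out pseudogenes, but the set was chosen with earlier results of these data known. The rule took Ugt1a, Ugt2a, Ugt3a and Ugt2b genes followed by a number, Sult genes, and Ces1 to Ces5 genes with a letter from a to h. This gave 60 of the 37085 gene symbols in the table: 20 UGT, 21 SULT and 19 CES genes. Of the 60, 34 had enough counts to be tested, and 26 did not.

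The samples were hepatocytes of C57BL/6 mice, in 25 libraries. The 20 libraries from mice on the NASH diet comprised 4 after 1 week, 3 after 2 weeks, 4 after 3 weeks, and 3 each after 4, 5 and 6 weeks; the 5 reference libraries came from mice on normal diet. Livers were digested with collagenase, hepatocytes were spun down at low speed and sorted by flow cytometry, and 3' ends of polyadenylated RNA were sequenced, to a depth of 5.28e+06 to 1.002e+07 counts per library. The sources used here do not give the make-up of the diet, the sorting gate, or the age and sex of the animals; Ddx3y, a gene of the Y chromosome, had more counts than Xist, the RNA of the inactive X, in 25 of 25 libraries. The labels give no genotype, drug or batch, and the only factors they name that separate the groups are diet and its duration. An age or batch that ran along with the weeks could not be told apart from the diet. Whether libraries of 1 group came from separate mice is not stated, and p-values then describe only how far these libraries spread, which may be technical.

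The 3 families make foreign and internal compounds easier to clear. UGTs are enzymes of the endoplasmic reticulum that join glucuronic acid from UDP-glucuronate to drugs, bilirubin, steroids and bile acids. SULTs are cytosolic enzymes that transfer sulfate from PAPS, the activated form of sulfate, to phenols, steroids and hydroxylated bile acids. Carboxylesterases cut ester and amide bonds in drugs and also in lipids such as triglycerides and cholesteryl esters. Hepatocytes are a main site of all of them, and nuclear receptors that sense foreign compounds and bile acids are known to control many of their genes.

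Members of each family mostly lie side by side in the genome. In the RefSeq gene order, 53 of the 60 genes fell into 9 runs of neighbouring protein-coding genes, the longest with 10 genes, Ces2a to Ces4a on chromosome 8. Of the 60 genes, 50 had an entry in a RefSeq table of promoters (GRCm38.p6), which gives 250 bases before and 50 after each start. Below are the 250 bases before the start of 5 genes: Ces2a, which was lower at every week; Ces4a, whose level fell most steeply from week to week; and Ugt2b38, Ugt2b37 and Ugt2b5, whose promoters are similar and whose week 4 changes (log2) were -2.23, -2.24 and -0.33. Capitals mark AGGTCA, the half-site of many nuclear receptors, or its reverse complement TGACCT.
Ces2a: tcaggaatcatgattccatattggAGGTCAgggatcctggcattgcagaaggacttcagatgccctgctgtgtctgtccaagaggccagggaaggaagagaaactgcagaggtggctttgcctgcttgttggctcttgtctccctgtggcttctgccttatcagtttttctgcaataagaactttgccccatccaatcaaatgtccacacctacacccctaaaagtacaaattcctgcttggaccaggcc
Ces4a: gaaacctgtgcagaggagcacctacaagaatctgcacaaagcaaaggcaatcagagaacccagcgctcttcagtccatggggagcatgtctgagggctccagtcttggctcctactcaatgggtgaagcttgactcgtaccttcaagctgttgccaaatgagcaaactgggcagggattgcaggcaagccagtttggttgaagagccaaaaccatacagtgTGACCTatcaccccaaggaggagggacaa
Ugt2b38: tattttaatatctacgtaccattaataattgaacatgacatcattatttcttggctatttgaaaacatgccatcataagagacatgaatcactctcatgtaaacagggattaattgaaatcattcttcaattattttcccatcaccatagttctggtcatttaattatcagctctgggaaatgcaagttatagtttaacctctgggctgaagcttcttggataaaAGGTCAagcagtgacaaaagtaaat
Ugt2b37: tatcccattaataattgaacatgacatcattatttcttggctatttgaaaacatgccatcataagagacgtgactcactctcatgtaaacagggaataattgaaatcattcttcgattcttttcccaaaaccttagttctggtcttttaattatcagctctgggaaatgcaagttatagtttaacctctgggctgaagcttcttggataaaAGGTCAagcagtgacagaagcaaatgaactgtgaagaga
Ugt2b5: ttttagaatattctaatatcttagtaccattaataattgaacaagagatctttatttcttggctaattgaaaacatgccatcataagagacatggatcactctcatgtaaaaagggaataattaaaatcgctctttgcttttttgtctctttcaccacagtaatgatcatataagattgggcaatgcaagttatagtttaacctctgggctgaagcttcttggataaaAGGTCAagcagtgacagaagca
These stretches lie at chr8:104733753-104734002 (plus strand) for Ces2a, chr8:105131550-105131799 (plus strand) for Ces4a, chr5:87424204-87424453 (minus strand) for Ugt2b38, chr5:87254789-87255038 (minus strand) for Ugt2b37 and chr5:87140341-87140590 (minus strand) for Ugt2b5. The marked letters begin 226 bases before the start in Ces2a, 29 in Ces4a, 25 in Ugt2b38, 39 in Ugt2b37 and 22 in Ugt2b5. On either strand, AGGTCA occurred in 16.3% of all 32851 promoter windows of the same length in 13 of the 54 windows of family genes, and in 11 of the 31 windows of tested family genes. Aligned end to end, the windows of Ugt2b37 and Ugt2b38 were 87.3% identical, those of Ugt2b38 and Ugt2b5 84.2%, and those of Ugt2b37 and Ugt2b5 76.5%. Among other letters searched on both strands were TATAAA, found in 13.6% of all windows and 6 of the 31, CAAAGTCCA (an HNF4 site) in 0.475% and 1, TTCNNNGAA (a STAT site) in 8.30% and 1 and, as a subset of AGGTCA, its DR4 direct repeat in 0.0152% and 0. A match describes the letters and is not evidence of binding.

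Levels are given as CPM, counts scaled to library size and between libraries by TMM factors; they count 3' tags, which are not divided by transcript length. On this tag scale 4 genes, Ces1c, Ces3a, Ugt2b1 and Ces3b, held 59.4% of the signal of the 34 tested genes, and the 10 highest held 84.7%. Differences were tested with edgeR's quasi-likelihood F-test in 1 model of all 25 libraries, and genes with a Benjamini-Hochberg adjusted p under 0.05, over 11869 genes, were called. Changes are log2 fold changes ± standard error, NASH diet over normal diet, and levels are mean ± SD. All 6 comparisons use the same 5 normal-diet libraries, so their results are not independent of each other. In a sorted bulk sample, fewer hepatocytes among the sorted cells and less RNA per hepatocyte cannot be told apart.

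The families were lower late on the diet. Of the 34 tested genes, 0 were higher and 2 lower at week 1, where 1.20% of all genes were called and 0.977% were called lower. At week 2, 0 were higher and 1 was lower (all genes 0.885% called and 0.657% called lower), and at week 3, 0 were higher and 3 lower (all genes 0.851% and 0.607%). At week 4, 1 was higher and 5 were lower, which is 17.6% of the 34, against 8.30% of all genes called, 5.44% higher and 2.86% lower. At week 5, 1 was higher and 18 were lower, so that 55.9% of the 34 were called, against 35.4% of all genes called, 19.1% higher and 16.3% lower. At week 6, 0 were higher and 17 lower, which is 50.0% of the 34, against 26.8% of all genes called and 10.5% called lower. The shares of the families and of all genes were not tested against each other.

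The median change of the 34 was -0.07, -0.23, -0.18, -0.26, -0.62 and -0.61 at weeks 1 to 6, beside medians of 0.02, 0.00, 0.02, -0.01, -0.05 and -0.05 over all tested genes. Libraries of the NASH week and of normal diet did not overlap for 4, 2, 2, 5, 11 and 11 of the 34 genes, against 4.42%, 6.88%, 5.06%, 13.5%, 38.3% and 26.6% of all genes. As a share of the 34, this was above that of all genes at week 1 and close to it at weeks 2 to 4. It was below that share at week 5 and somewhat above it at week 6. The 34 genes together summed to 5248 ± 517 CPM at week 5 and 5352 ± 138 CPM at week 6 (n = 3 each), against 8143 ± 615 CPM on normal diet (n = 5). Of the genes called lower, 14 were called at both week 5 and week 6: Ces1b, Ces1c, Ces1f, Ces2a, Ces2b, Ces3b, Ces4a, Sult1a1, Ugt2a3, Ugt2b1, Ugt2b34, Ugt2b36, Ugt2b38 and Ugt2b5.

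**Figure D1:**
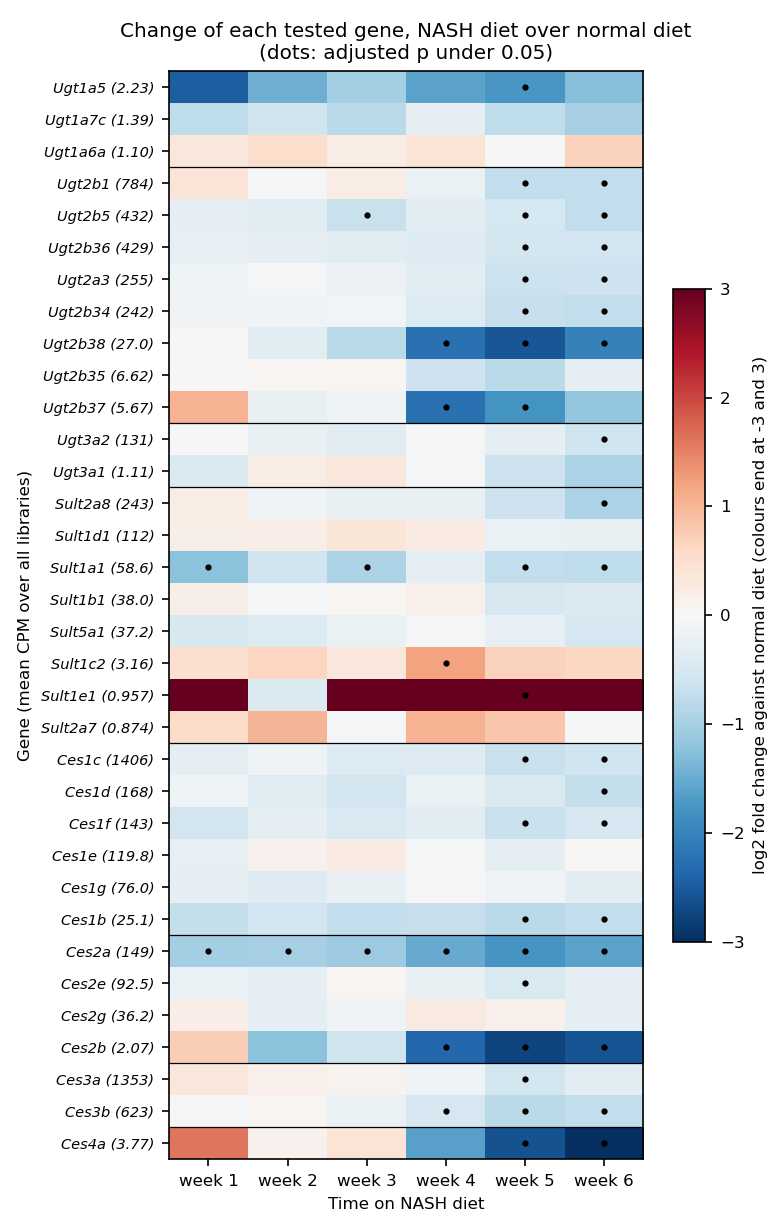
Log2 fold change of each of the 34 tested genes (rows, by family, with the mean CPM over all libraries) at each week of NASH diet over normal diet (columns); blue is lower, red is higher, and dots mark adjusted p under 0.05. Ces2a is called at all 6 weeks, while most other dots stand at weeks 5 and 6.

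**Figure D2:**
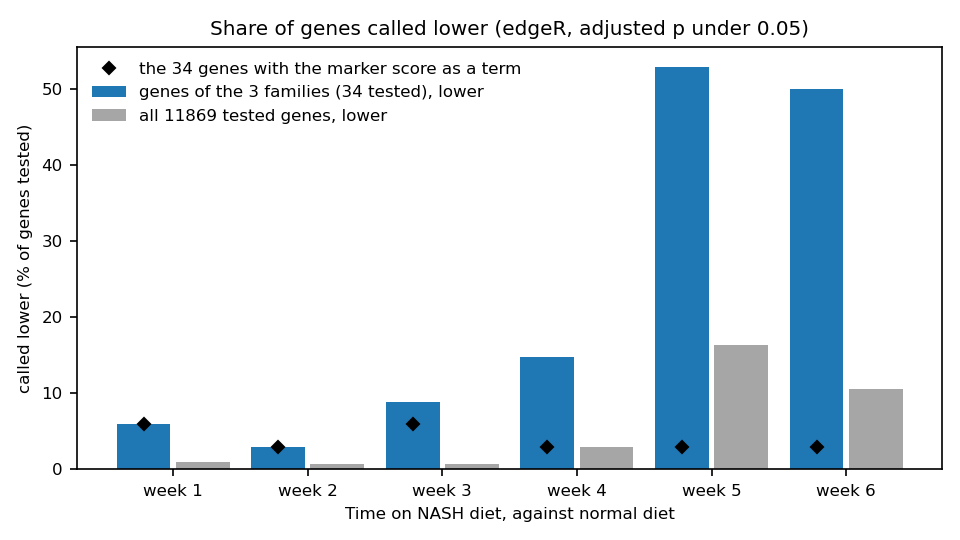
Percent of genes called lower at each week of NASH diet against normal diet (y axis). Blue bars give the 34 tested family genes and grey bars all 11869 tested genes, both without a marker score in the model. Diamonds give the 34 genes when a marker score of other liver cells is a term of the model. Calls among all genes were not counted with that term, so diamonds and grey bars cannot be compared. At weeks 5 and 6 the blue bars stand for 18 and 17 genes and the diamonds for 1 gene each.

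Markers of other cell types changed at the same weeks. Of 10 Kupffer cell, 10 sinusoidal endothelial and 10 stellate cell markers, 10, 10 and 9 were higher at week 5, and 9, 10 and 9 were higher at week 6. The 10 Kupffer markers summed to 1644 to 1783 CPM at week 5 and 1362 to 1677 CPM at week 6, against 109 to 590.2 CPM on normal diet. For the 10 endothelial markers the sums were 1440.0 to 1663 CPM at week 5 and 1162 to 1453 CPM at week 6, against 163 to 636 CPM on normal diet. For the 10 stellate markers they were 435 to 914 CPM at week 5 and 427 to 748 CPM at week 6, against 70.3 to 139 CPM on normal diet. No marker of these 3 lists was at 0 in all libraries. Of 6 monocyte and macrophage markers, 5 were higher at week 5 and 6 at week 6; of 3 tested cholangiocyte markers, 2 were higher at each; and of 1 tested intestinal marker, 0.

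Of 8 hepatocyte markers, 5 were lower at week 5 and 5 at week 6, with medians of -0.72 and -0.47. Their sum was 65596 to 74303 CPM at week 5 and 71793 to 72922 CPM at week 6, against 88305 to 98664 CPM on normal diet. Set against that sum, which needs no scaling between libraries, the 34 family genes amounted to 7.54% ± 1.21 at week 5 and 7.41% ± 0.129 at week 6 (n = 3 each), against 8.66% ± 0.455 on normal diet (n = 5). The highest week 6 library had 7.56% and the lowest normal-diet library 8.19%, while at week 5 the highest library had 8.89%. At week 1 the 34 genes amounted to 10.4% ± 0.623 (n = 4), with a lowest library of 9.82% and a highest normal-diet library of 9.20%. Their summed level was not higher at that week, at 7936 ± 628 CPM, against 8143 ± 615 CPM on normal diet. The marker sum was lower, at 73762 to 80237 CPM. Most of it was Alb, with 48531 ± 5012 CPM at week 1, against 64061 ± 3233 CPM on normal diet.

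The number of late calls depended on the scaling and on these markers. With library size only in place of TMM, 2 genes were higher and 7 lower at week 5, and 1 was higher and 9 lower at week 6. Of all 11869 genes, 3779 were higher and 365 lower at week 5 with this scaling, and 3260 were higher and 231 lower at week 6; the median of all genes was 0.28 and 0.25 and that of the 34 genes -0.29 and -0.31. With each library scaled to its summed hepatocyte markers, 3 were higher and 4 lower at week 5, and 1 was higher and 4 lower at week 6, with medians of -0.17 and -0.23 for the 34 genes beside 0.37 and 0.33 for all genes. With a score of the Kupffer, endothelial and stellate markers as a term of the model, 1 gene, Ces2a, was called at each of these weeks. At each week 7 genes had an unadjusted p under 0.05. Calls among all genes were not counted for this fit or for hepatocyte scaling, so these counts have no share of all genes beside them. The score averaged 6.14 ± 0.16 at week 5 and 5.87 ± 0.18 at week 6 on the log2 CPM scale, against 3.58 ± 0.74 on normal diet, and its lowest week 5 and week 6 values of 5.96 and 5.69 lie above the highest normal-diet value of 4.42, so at these weeks the score and the diet cannot be told apart.

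Among the carboxylesterases, Ces2a changed first and stayed low. Enzymes of the CES2 group hydrolyse drugs with large alcohol groups as well as glycerides. Ces2a had 298, 351, 225, 304 and 221 CPM in the 5 normal-diet libraries, 128, 135, 156 and 139 CPM at week 1, 143, 131 and 147 CPM at week 2, 98.9, 130.3, 149 and 151 CPM at week 3, 99.0, 94.0 and 101 CPM at week 4, 96.0, 78.0 and 72.8 CPM at week 5, and 66.0, 128 and 80.6 CPM at week 6. All 20 libraries of the NASH diet lay below all 5 of normal diet. Ces2a was 1.99-fold lower at week 2 (adjusted p = 0.00457). The log2 change was -1.01 ± 0.16 at week 1 (adjusted p = 0.000796), -1.08 ± 0.16 at week 3 (0.000417), -1.52 ± 0.19 at week 4 (1.45e-05), -1.77 ± 0.19 at week 5 (1.19e-06) and -1.61 ± 0.19 at week 6 (3.94e-06). From week 1 to week 6 it also fell further, by 0.17 ± 0.03 per week on the log2 scale (adjusted p = 0.000329).

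The weekly differences of Ces2a passed the threshold in every alternative fit and with every single library left out. With the marker score as a term they were -1.06, -1.07, -1.14, -1.64, -1.97 and -1.79 at weeks 1 to 6, with adjusted p between 0.000796 and 0.00982; with hepatocyte scaling they were -0.71, -0.86, -0.80, -1.36, -1.33 and -1.24. As a percent of the summed hepatocyte markers, Ces2a was 0.183 ± 0.0135 at week 1 (SD, n = 4) and 0.119 ± 0.0250 at week 5 (n = 3), against 0.298 ± 0.0612 on normal diet (n = 5). Only the fall from week to week lost its call with the marker score as a term (-0.20, adjusted p = 0.225). Of its tested neighbours in the CES2 group, Ces2e was lower at week 5 alone (76.0 ± 6.85 CPM, against 104 ± 15.2 CPM on normal diet; -0.45 ± 0.16, adjusted p = 0.0287), a call lost without normal-diet library 1 or any week 5 library (up to 0.227). Ces2g, with group means of 29.5 to 43.4 CPM, was not called in any comparison. The difference in change between Ces2a and these neighbours was not tested.

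**Figure D3:**
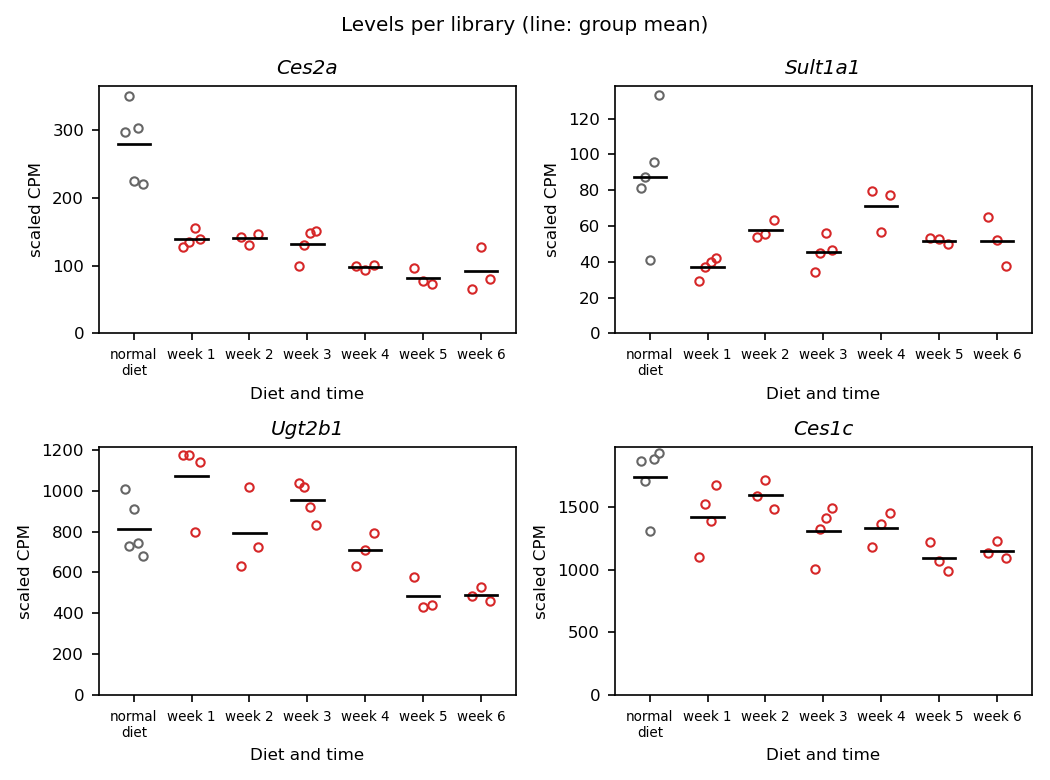
Scaled CPM of Ces2a, Sult1a1, Ugt2b1 and Ces1c (y axes, from 0) in every library on normal diet (grey circles) and at each week of NASH diet (red circles); lines are group means. Ces2a libraries of the NASH diet all lie below those of normal diet from week 1, and the levels of Ugt2b1 and Ces1c are lowest at weeks 5 and 6.

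Ces2b and Ces4a, at the low end of the tag counts, were lower from week 4 or 5. Ces2b had 3.44, 5.00, 4.83, 1.48 and 0.219 CPM on normal diet, 5.27, 3.76, 6.73 and 4.58 CPM at week 1, 0.429, 2.16 and 1.32 CPM at week 2, 3.20, 2.28, 0.847 and 1.74 CPM at week 3, 1.31, 0.295 and 0.119 CPM at week 4, 0.972, 0.238 and 0 CPM at week 5, and 0.327, 0.431 and 0.735 CPM at week 6. Normal-diet library 5 was as low as those of weeks 4 to 6, so the groups overlapped. The change of Ces2b was -2.36 ± 0.74 at week 4 (adjusted p = 0.0475), -2.76 ± 0.77 at week 5 (0.00723) and -2.60 ± 0.79 at week 6 (0.016), and its slope over weeks 1 to 6 was -0.66 ± 0.14 per week (0.000704). The week 4 call was lost in 17 of the 25 fits that left out 1 library, among them any week 4 library (up to 0.192), and the week 6 call without week 6 library 1 or 2 (0.0825 and 0.0537).

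Ces4a, a carboxylesterase whose substrates are little known, had 6.89, 2.76, 2.02, 4.31 and 0.877 CPM on normal diet, 10.4, 9.68, 12.9 and 8.86 CPM at week 1, 2.00, 4.94 and 4.31 CPM at week 2, 7.68, 4.57, 2.37 and 3.72 CPM at week 3, 1.96, 0.394 and 0.952 CPM at week 4, 1.17, 0.119 and 0.238 CPM at week 5, and 0.327, 0.144 and 0.735 CPM at week 6. All week 1 libraries were above, and all week 6 libraries below, those of normal diet. At week 1 the difference of 1.61 ± 0.44 missed the threshold (adjusted p = 0.0747), although DESeq2, limma voom and hepatocyte scaling called it (adjusted p = 0.0282, 0.0112 and 0.0179). The median over all tested genes at week 1 was 0.32 with hepatocyte scaling. Ces4a was lower at week 5 (-2.62 ± 0.65, adjusted p = 0.00296) and week 6 (-3.06 ± 0.72, 0.00267). Its slope of -0.96 ± 0.12 per week (4.89e-06) was the most negative among the 34 genes. With the marker score as a term the slope was -0.92 with an adjusted p of 0.0629.

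**Figure D4:**
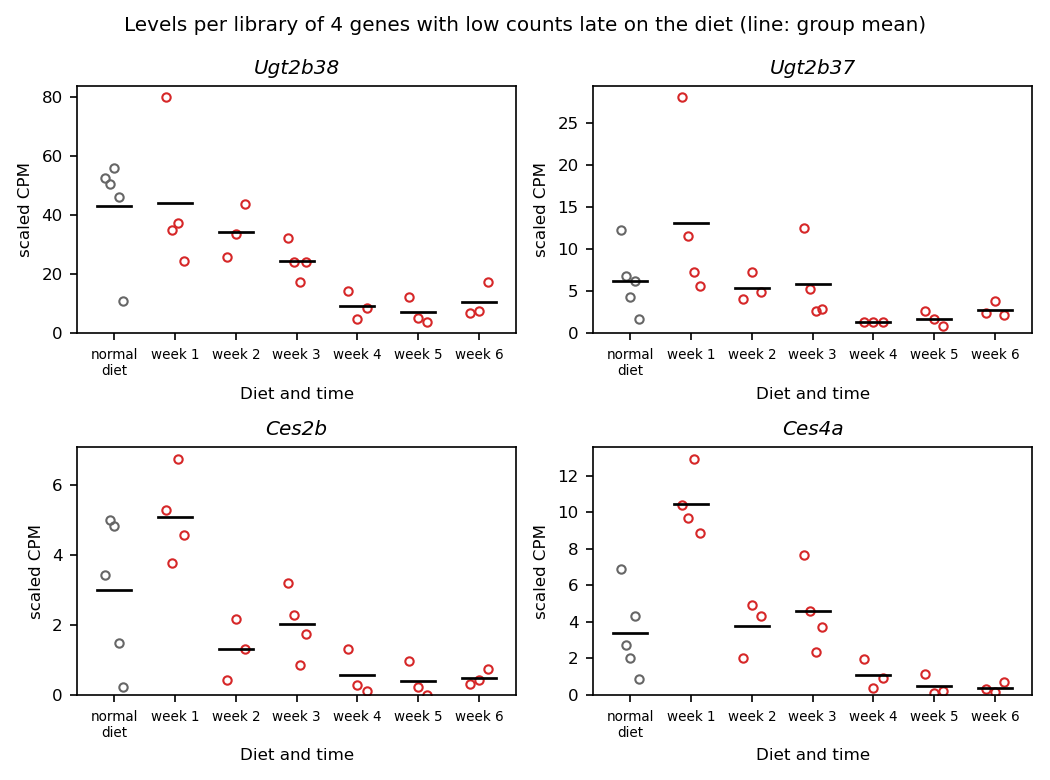
Scaled CPM of Ugt2b38, Ugt2b37, Ces2b and Ces4a (y axes, from 0) in every library on normal diet (grey circles) and at each week of NASH diet (red circles); lines are group means. All 4 genes are low at weeks 4 to 6, and the fifth normal-diet library is the lowest of its group in each.

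Of the 6 tested CES1 genes 3 were lower at week 5 and 4 at week 6, and of the 2 CES3 genes 2 and 1. Over all genes, the share called lower was 16.3% at week 5 and 10.5% at week 6. Ces1c encodes an esterase secreted into mouse plasma. Ces1c had 1870.2, 1708, 1307, 1880.4 and 1929 CPM on normal diet, 1102, 1526, 1387 and 1679 CPM at week 1, 1592, 1716 and 1488 CPM at week 2, 1002, 1329, 1412 and 1491 CPM at week 3, 1181, 1363 and 1453 CPM at week 4, 1219.6, 1072 and 988 CPM at week 5, and 1132, 1230.1 and 1097 CPM at week 6. All libraries of weeks 5 and 6 lay below those of normal diet, by a small margin to normal-diet library 3. The change was -0.67 ± 0.15 at week 5 (adjusted p = 0.00101) and -0.59 ± 0.15 at week 6 (0.00395), with a slope of -0.09 ± 0.03 per week (0.00996). With hepatocyte scaling it was -0.23 and -0.21, with adjusted p of 0.203 and 0.277.

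Ces3a and Ces3b are neighbouring genes whose liver enzymes cleave triglycerides. Ces3a had 1523, 1548, 1312, 1308 and 1118 CPM on normal diet, 1614, 1670.4, 1681 and 1933 CPM at week 1, 1208, 1632 and 1728 CPM at week 2, 1615, 1392, 1317 and 1509 CPM at week 3, 1190.1, 1216 and 1279 CPM at week 4, 1041, 867 and 908 CPM at week 5, and 925, 1348 and 929.9 CPM at week 6. Every week 1 library was above every normal-diet library, and every week 5 library below. The week 1 difference was not called (0.34 ± 0.13, adjusted p = 0.26), while with hepatocyte scaling it was (0.64, adjusted p = 0.00999). With this scaling the median over all tested genes at week 1 was 0.32. Ces3a was lower at week 5 (-0.54 ± 0.14, 0.00427) and not called at week 6 (-0.35 ± 0.14, 0.0648), and its slope was -0.17 ± 0.03 per week (3.3e-05). Without week 5 library 2 the week 5 call was lost (0.0603).

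Ces3b had 742, 728, 822, 753 and 635 CPM on normal diet, 648, 645, 817 and 763 CPM at week 1, 552, 744 and 986 CPM at week 2, 699.7, 635, 589.9 and 651 CPM at week 3, 468, 534 and 566 CPM at week 4, 472, 431 and 355 CPM at week 5, and 439.9, 514 and 376 CPM at week 6. From week 4 on, all libraries were below those of normal diet. Ces3b was lower at week 4 (-0.50 ± 0.15, adjusted p = 0.0415), week 5 (-0.81 ± 0.15, 0.000212) and week 6 (-0.73 ± 0.15, 0.000845), with a slope of -0.18 ± 0.03 per week (2.58e-05). The last 300 bases of the Ces3a and Ces3b transcripts share a run of 76 bases, and those of Ces1b and Ces1c one of 118 bases, so tags from those runs do not separate the members of a pair. The week 4 call of Ces3b was lost without any of normal-diet libraries 1 to 4 or week 4 library 1 or 2 (up to 0.229).

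Ces1d, the triacylglycerol hydrolase that mobilises stored fat for lipoproteins, had 243, 202, 132, 235 and 224 CPM on normal diet, 153, 174, 222 and 203 CPM at week 1, 145, 174 and 164 CPM at week 2, 87.7, 144, 161 and 169.9 CPM at week 3, 188, 169 and 187 CPM at week 4, 157, 155 and 146 CPM at week 5, and 165, 57.5 and 155 CPM at week 6. It was called at week 6 alone (-0.72 ± 0.26, adjusted p = 0.0398), where library 2 was far below the other 2 and the groups overlapped. Without that library the adjusted p was 0.238, and 7 other libraries, namely normal-diet libraries 1, 2, 4 and 5 and all of week 5, also ended the call when left out (up to 0.0816). Ces1b and Ces1f were already at -0.71 ± 0.20 and -0.56 ± 0.15 at week 1, with unadjusted p of 0.00155 and 0.00111, but missed the threshold (adjusted p = 0.0875 and 0.071). Ces1b averaged 20.8 ± 2.98 CPM at week 5 and 21.7 ± 2.33 CPM at week 6, against 36.5 ± 9.87 CPM on normal diet (-0.80 ± 0.22 and -0.74 ± 0.22, adjusted p = 0.00554 and 0.0127). Ces1f averaged 116 ± 11.8 CPM at week 5 and 129.5 ± 8.78 CPM at week 6, against 184 ± 24.2 CPM on normal diet (-0.66 ± 0.17 and -0.51 ± 0.17, adjusted p = 0.00306 and 0.0248). The week 6 call of Ces1b was lost without week 6 library 1 or 2 (0.0611 and 0.058), the week 5 call of Ces1f without week 5 library 2 (0.0506), and its week 6 call without any week 6 library (up to 0.109). Ces1e, the egasyn that holds beta-glucuronidase in the endoplasmic reticulum, and Ces1g were not called in any comparison; their changes over the 6 weeks were between -0.29 and 0.25 and between -0.38 and 0.02.

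Among the UGT2 genes, which encode the main glucuronidating enzymes for steroids and bile acids, 7 of 8 tested were lower at week 5 and 6 at week 6, and 7 had a called negative slope, against 16.3%, 10.5% and 14.9% of all genes. Ugt2b1 had the most tags. Ugt2b1 had 1009, 729, 913, 742 and 680.0 CPM on normal diet, 1175, 1175, 798 and 1139.8 CPM at week 1, 631, 1017 and 727 CPM at week 2, 1036, 1021, 922 and 834 CPM at week 3, 632, 711 and 794 CPM at week 4, 579, 431 and 439 CPM at week 5, and 487, 528 and 458 CPM at week 6. All libraries of weeks 5 and 6 were below those of normal diet, and 3 of the 4 week 1 libraries above them. Ugt2b1 was lower at week 5 (-0.75 ± 0.17, adjusted p = 0.000944) and week 6 (-0.73 ± 0.17, 0.00183), and its slope was -0.23 ± 0.03 per week (5.83e-06). With hepatocyte scaling it was higher at week 1 and week 3 (0.70 and 0.53, adjusted p = 0.0138 and 0.0448) and not called at weeks 5 and 6 (-0.32 and -0.36, 0.158 and 0.131), while the slope of -0.20 kept its call (3.95e-05). The same scaling moved the median over all tested genes to 0.32 at week 1 and 0.31 at week 3.

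Ugt2b5 had 552, 675, 433, 535 and 577 CPM on normal diet, 385, 421, 511 and 494 CPM at week 1, 367, 460.2 and 487 CPM at week 2, 353, 329, 363 and 362 CPM at week 3, 462, 443 and 415 CPM at week 4, 451, 366 and 346 CPM at week 5, and 384, 286 and 333 CPM at week 6. Its week 3 and week 6 libraries lay below all of normal diet. Ugt2b5 was lower at week 3 (-0.66 ± 0.13, adjusted p = 0.00587), week 5 (-0.52 ± 0.14, 0.00485) and week 6 (-0.73 ± 0.14, 0.000404), and not called at week 4 (-0.33 ± 0.14, 0.133). The slope was -0.07 ± 0.02 per week (0.0328). The week 5 call was lost without week 5 library 2 or 3 (0.0726 and 0.063), and the slope call in 8 of the 25 fits that left out 1 library, with 2 libraries each of weeks 1, 2, 5 and 6 (up to 0.161).

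Ugt2b36 had 588, 521, 395, 471 and 649 CPM on normal diet, 427, 480.3, 404 and 462 CPM at week 1, 418, 466 and 417 CPM at week 2, 441, 444, 425 and 386 CPM at week 3, 351, 409 and 447 CPM at week 4, 368, 349 and 347 CPM at week 5, and 318, 299 and 435 CPM at week 6. The week 5 libraries lay below all of normal diet, and 1 of week 6 did not. The change was -0.56 ± 0.14 at week 5 (adjusted p = 0.00261) and -0.58 ± 0.14 at week 6 (0.00292), with a slope of -0.08 ± 0.02 per week (0.0206), whose call was lost without week 5 library 2 or week 6 library 1 or 2 (up to 0.109).

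Ugt2a3, whose human counterpart glucuronidates bile acids, had 317, 251, 338, 260.1 and 328 CPM on normal diet, 284, 258, 250.0 and 282 CPM at week 1, 263, 314 and 285 CPM at week 2, 244, 271, 290.0 and 260.1 CPM at week 3, 194, 251 and 274 CPM at week 4, 209, 184 and 179 CPM at week 5, and 169, 186 and 224 CPM at week 6. Groups did not overlap at weeks 5 and 6. Ugt2a3 was lower at week 5 (-0.65 ± 0.13, adjusted p = 0.000383) and week 6 (-0.63 ± 0.13, 0.000746), with a slope of -0.12 ± 0.02 per week (0.000214).

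Ugt2b34 had 287, 351, 216, 282 and 292 CPM on normal diet, 252, 288, 254 and 275 CPM at week 1, 239, 319.9 and 221 CPM at week 2, 303, 305, 226 and 249.6 CPM at week 3, 189.8, 225 and 234 CPM at week 4, 188, 179.9 and 165 CPM at week 5, and 196, 131 and 187 CPM at week 6. Again the libraries of weeks 5 and 6 were all below those of normal diet. The change was -0.69 ± 0.15 at week 5 (adjusted p = 0.00122) and -0.74 ± 0.16 at week 6 (0.001), with a slope of -0.15 ± 0.03 per week (0.000226).

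Ugt2b38 and Ugt2b37, the pair with the most similar promoters above, fell from week 4. Ugt2b38 had 52.6, 50.4, 55.9, 46.0 and 11.0 CPM on normal diet, 79.9, 35.1, 37.2 and 24.6 CPM at week 1, 25.9, 33.7 and 43.8 CPM at week 2, 32.3, 24.1, 17.4 and 24.3 CPM at week 3, 14.5, 4.82 and 8.57 CPM at week 4, 12.2, 5.35 and 4.04 CPM at week 5, and 6.98, 7.76 and 17.5 CPM at week 6. Normal-diet library 5 fell in the range of weeks 4 to 6, and the other 4 were above all of it. Ugt2b38 was lower at week 4 (-2.23 ± 0.53, adjusted p = 0.0165), week 5 (-2.57 ± 0.54, 0.000981) and week 6 (-2.03 ± 0.52, 0.00677), with a slope of -0.53 ± 0.09 per week (0.00025). With hepatocyte scaling these weekly changes were -2.07, -2.13 and -1.66, with adjusted p of 0.0278, 0.00554 and 0.0276. Without week 4 library 2 the week 4 call was lost (0.0903).

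Ugt2b37 had 12.3, 6.90, 4.36, 6.19 and 1.75 CPM on normal diet, 28.1, 11.6, 7.28 and 5.65 CPM at week 1, 4.14, 7.26 and 4.91 CPM at week 2, 12.6, 5.27, 2.71 and 2.86 CPM at week 3, 1.31, 1.38 and 1.31 CPM at week 4, 2.72, 1.67 and 0.950 CPM at week 5, and 2.40, 3.88 and 2.21 CPM at week 6. The week 4 libraries lay below all of normal diet. It was lower at week 4 (-2.24 ± 0.66, adjusted p = 0.0398) and week 5 (-1.80 ± 0.63, 0.03), not called at week 6 (-1.17 ± 0.61, 0.166), and had a slope of -0.51 ± 0.11 per week (0.000937). The week 4 call was lost without normal-diet library 1 or 2 or any week 4 library, with adjusted p up to 0.174, and the week 5 call without normal-diet library 1 or week 5 library 2 or 3, with adjusted p up to 0.136.

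Ces2b, Ces4a, Ugt2b37 and Ugt2b38 had in common that normal-diet library 5 was the lowest of its group. That library had 0.219, 0.877, 1.75 and 11.0 CPM of the 4 genes, and the lowest of the other normal-diet libraries was 6.76, 2.31, 2.49 and 4.20 times as high. For Ces2a and Ugt2b1 the same ratio was 1.02 and 1.07. All weeks' comparisons use this library. Left out, it changed none of the weekly calls of the 4 genes.

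Among the other UGT genes few calls were made. Ugt2b35 (group means of 4.16 to 7.73 CPM) was not called; its lowest change was -0.81 ± 0.33 at week 5 (adjusted p = 0.0576). The UGT3 enzymes use sugars other than glucuronic acid, as shown for the human forms. Ugt3a2 was lower at week 6 alone (98.2 ± 38.4 CPM, against 149 ± 13.4 CPM on normal diet; -0.60 ± 0.19, adjusted p = 0.0202), where library 2 had 53.9 CPM and the others at most 122 CPM; without library 2 the adjusted p was 0.191. Ugt3a1, at 0.620 to 1.52 CPM, was not called.

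Most Ugt1a genes could not be told apart by 3' tags. They are made from 1 locus with separate first exons and shared last exons; Ugt1a1 is the enzyme that clears bilirubin. In the GENCODE M21 transcripts, 8 of the 9 shared at least 293 of their last 300 bases with one another (28 of 36 pairs), and 16 pairs had an identical end; the exception was Ugt1a7c. The table gave 853 counts to the 9 symbols over all libraries, and 3 of the 9 were tested. Ugt1a5 averaged 1.36 ± 0.693 CPM at week 5, against 4.75 ± 3.09 CPM on normal diet (-1.74 ± 0.63, adjusted p = 0.0333). The call was lost without normal-diet library 1 or 5 or any of the week 5 libraries, with adjusted p up to 0.175. Ugt1a6a (0.895 to 1.46 CPM) and Ugt1a7c (1.01 to 2.05 CPM) were not called, and the values of Ugt1a5 and Ugt1a6a do not stand for a single Ugt1a gene.

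Sulfotransferase genes changed in both directions. Of 8 tested, 1 was higher and 1 lower at week 5, and 0 were higher and 2 lower at week 6. Over all genes, 19.1% were higher and 16.3% lower at week 5, and 16.3% and 10.5% at week 6. Sult1a1, which sulfates phenols, was lower from week 1. Sult1a1 had 81.0, 87.4, 40.8, 96.0 and 133 CPM on normal diet, 29.1, 37.0, 39.8 and 42.3 CPM at week 1, 54.0, 55.8 and 63.2 CPM at week 2, 34.4, 45.0, 56.2 and 46.8 CPM at week 3, 79.7, 56.9 and 77.1 CPM at week 4, 53.1, 52.9 and 49.7 CPM at week 5, and 65.0, 52.0 and 37.5 CPM at week 6. Normal-diet library 3 was in the range of the NASH diet, and the other 4 were above all of its libraries. The change was -1.24 ± 0.23 at week 1 (adjusted p = 0.00396), -0.60 ± 0.24 at week 2 (0.311), -0.94 ± 0.23 at week 3 (0.0481), -0.30 ± 0.24 at week 4 (0.489), -0.75 ± 0.25 at week 5 (0.02) and -0.76 ± 0.25 at week 6 (0.0244).

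The week 1 call of Sult1a1 was kept with the marker score as a term (-1.13, adjusted p = 0.0248) and with every library left out, and was lost when only the 2 groups entered the fit (0.0999). The week 3 call was lost in 21 of the 25 fits that left out 1 library. The week 5 and week 6 calls were lost without normal-diet library 5 (adjusted p = 0.0598 and 0.0697), without any week 5 library (up to 0.0916) and without week 6 library 2 or 3 (up to 0.167).

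Sult2a8, which sulfates bile acids in mouse liver, had 354, 282, 181, 234 and 331 CPM on normal diet, 265, 363, 288 and 376 CPM at week 1, 222, 302 and 242 CPM at week 2, 237, 238, 216 and 261 CPM at week 3, 190.3, 238 and 282 CPM at week 4, 243, 154 and 147 CPM at week 5, and 203, 75.6 and 153 CPM at week 6. The groups overlapped at every week. It was lower at week 6 (-0.94 ± 0.26, adjusted p = 0.00827), with a slope of -0.21 ± 0.05 per week (0.00114). Without week 6 library 2 the week 6 call was lost (0.0654). Week 6 library 2, the lowest for Sult2a8, Ces1d and Ugt3a2, was at the same time the highest of week 6 for Ces2a (128 CPM) and Ces3a (1348 CPM).

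Sult1b1, which sulfates thyroid hormones, was called for its slope alone (-0.12 ± 0.04 per week, adjusted p = 0.0136), with 29.0 ± 2.49 CPM at week 6, against 44.0 ± 8.83 CPM at week 1; without week 5 or week 6 library 2 it was lost (0.0536 and 0.0577). Its weekly differences from normal diet were not called, the largest being -0.49 ± 0.21 at week 5 (27.8 ± 3.19 CPM, against 39.4 ± 9.47 CPM on normal diet; adjusted p = 0.0639). Sult1d1, which sulfates dopamine and other catecholamines in mice, Sult5a1 and Sult2a7 were not called; their changes were between -0.22 and 0.36, between -0.51 and -0.03, and between -0.07 and 1.05.

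The genes called higher were both sulfotransferases with few tags. Sult1c2 averaged 5.01 ± 0.656 CPM at week 4 (n = 3), against 2.15 ± 0.888 CPM on normal diet (n = 5), and the groups did not overlap (1.21 ± 0.30, adjusted p = 0.0171). The call was lost without week 4 library 1 (0.114). With hepatocyte scaling Sult1c2 was also called at week 5 (1.09, 0.00531) and week 6 (1.00, 0.0135). The same scaling moved the median over all tested genes to 0.37 at week 5 and 0.33 at week 6. Sult1e1, the estrogen sulfotransferase, had 0.292, 3.93 and 0.713 CPM at week 5, against 0.181, 0, 0.156, 0 and 0 CPM on normal diet (adjusted p = 0.0361). Pooled over libraries these were 42 counts at week 5 and 2 counts on normal diet. Per total count scaled by the TMM factors this is a ratio of 23.0, with an exact 95% interval of 5.99 to 196 that covers counting error only.

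Sult1e1 was uneven within groups. Week 1 had 2.72, 0.723, 0.137 and 0.153 CPM, week 2 had 0, 0 and 0.120 CPM, week 3 had 7.68, 0, 1.35 and 0.248 CPM, week 4 had 0.544, 1.48 and 0.476 CPM, and week 6 had 1.42, 0.144 and 1.47 CPM. Single libraries, the first of week 3 and the second of week 5, held the highest values. The week 5 call was lost without week 5 library 2 (adjusted p = 0.327) and without any one of the normal-diet libraries (0.051 to 0.0724).

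The 26 untested genes had between 0 and 43 counts over all 25 libraries, and 11 of them had 0. With at least 1 count, and by their highest CPM in a library, they were Ces2c (0.705), Ugt1a6b (0.700), Sult6b1 (0.648), Sult4a1 (0.410), Ces1h (0.220), Ugt1a1 (0.219), Ces1a (0.189), Ugt1a9 (0.189), Ugt1a8 (0.175), Sult3a1 (0.162), Sult6b2 (0.161), Sult2b1 (0.148), Sult2a2 (0.123), Ugt2a2 (0.123) and Sult2a1 (0.113). The genes at 0 were Ces2f, Ces2h, Ces5a, Sult1c1, Sult2a3, Sult2a4, Sult2a5, Sult2a6, Sult3a2, Ugt1a2 and Ugt1a10. Sult2a1 and Sult3a1, known as female-predominant in mouse liver, thus had 1 and 4 counts in all. A count of 0 in a library allows up to 3 counts, or 0.300 to 0.568 CPM at these depths, by counting error only.

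A gene for each cofactor, Ugdh and Papss2, was lower at week 1, as 2 of the 14 tested supply genes. Of 6 genes for UDP-glucuronate, Ugdh, the dehydrogenase that makes it, was lower at all 6 weeks: it averaged 83.6 ± 20.1 CPM on normal diet, and 54.4 ± 5.22, 47.9 ± 5.62, 49.7 ± 4.85, 59.2 ± 1.44, 60.7 ± 9.44 and 57.9 ± 8.73 CPM at weeks 1 to 6. The changes were -0.62, -0.80, -0.75, -0.50, -0.46 and -0.53, with adjusted p of 0.0214, 0.00819, 0.00518, 0.045, 0.0211 and 0.0118. Ugp2, which makes UDP-glucose, was higher at week 4 (0.55 ± 0.15, 0.0285). The nucleotide sugar transporters Slc35d1 and Slc35d2 were lower at week 5 (-0.40 and -0.44, adjusted p = 0.0229 and 0.0283) and Slc35b1 at week 6 (-0.47, 0.0331).

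Of 8 tested genes for sulfate and PAPS, Papss2, a PAPS synthase, was lower at weeks 1, 2, 4, 5 and 6 (-0.69, -0.80, -0.80, -1.18 and -1.13, adjusted p = 0.0262, 0.0238, 0.00996, 3.26e-05 and 9.35e-05). It averaged 144 ± 33.8 CPM on normal diet, and 89.4 ± 14.9, 82.8 ± 3.47, 97.3 ± 9.95, 83.1 ± 27.5, 63.5 ± 4.54 and 65.7 ± 5.57 CPM at weeks 1 to 6. The sulfate transporter Slc26a1 was lower at week 5 (-0.59 ± 0.17, adjusted p = 0.0069), and its relative Slc26a2 was higher at weeks 5 and 6 (0.73 and 0.63, adjusted p = 0.00479 and 0.019). The median over this list was between -0.18 and 0.00 at the 6 weeks.

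**Figure D5:**
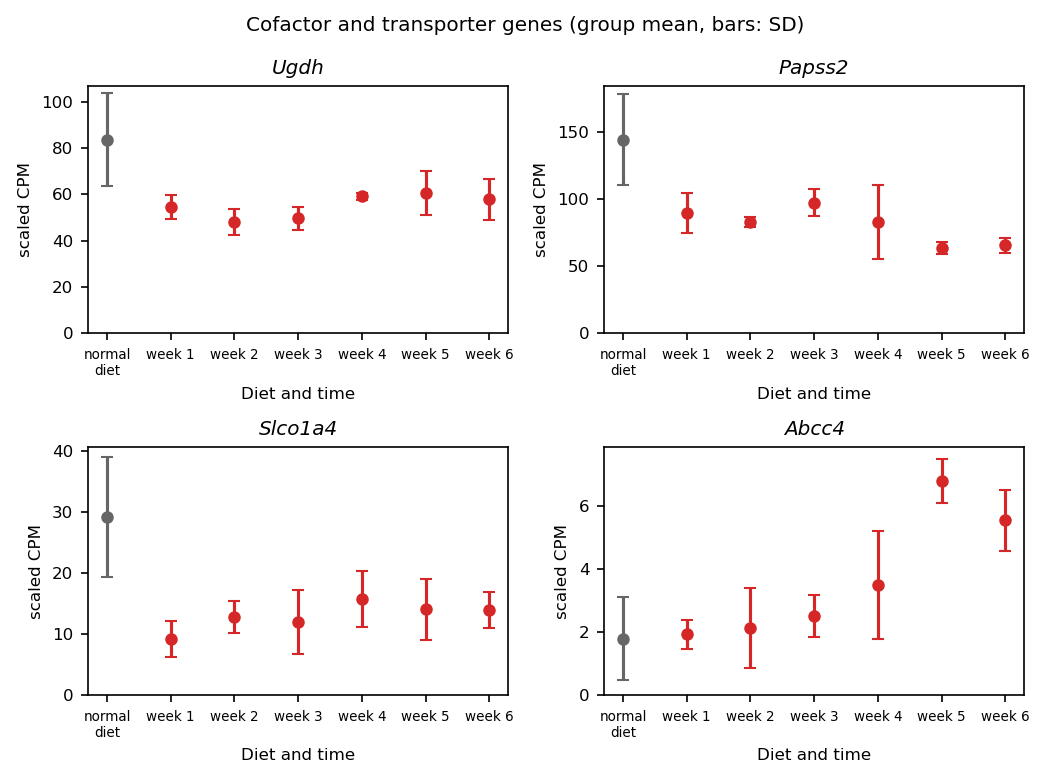
Group means (points) with SD (bars) of scaled CPM (y axes, from 0) for Ugdh, Papss2, Slco1a4 and Abcc4 on normal diet (grey) and at each week of NASH diet (red). Ugdh, Papss2 and Slco1a4 are below normal diet from week 1, and Abcc4 is highest at week 5.

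Other esterases and transporters that act on the same compounds were counted too. Of 7 tested esterases and deconjugating enzymes, 0 were called at weeks 1 to 4 and 4 were lower at both week 5 and week 6: the arylacetamide deacetylase Aadac (-0.47 and -0.60), the plasma cholinesterase Bche (-0.38 and -0.52), and the paraoxonases Pon1 (-0.78 and -0.83) and Pon3 (-0.69 and -0.50), with adjusted p between 0.000952 and 0.0255. Gusb, the beta-glucuronidase, had a positive slope (0.08 ± 0.03 per week, adjusted p = 0.0387). At weeks 1 to 4, where edgeR called 0 of them, 1, 0, 2 and 1 had an unadjusted p under 0.05.

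Among 10 conjugate transporters, 3 importers were lower and 1 exporter was higher at weeks 5 and 6. Slco1a4, an organic anion importer, was lower at week 1 (9.16 ± 2.98 CPM, against 29.2 ± 9.78 CPM on normal diet; -1.66 ± 0.33, adjusted p = 0.00904), week 5 (-1.05, 0.0226) and week 6 (-1.05, 0.0289). Slco1a1 and Slco2b1 were lower at week 5 (-0.75 and -0.53, adjusted p = 0.001 and 0.00161) and week 6 (-0.61 and -0.40, 0.00716 and 0.0173). Abcc3, which exports glucuronides into blood, was lower at weeks 1 and 3 (-0.79 and -0.67, adjusted p = 0.00742 and 0.0423). Abcg2, a canalicular exporter of sulfate conjugates, was higher at week 1 (0.64 ± 0.12, 0.00345). Abcc4, a basolateral exporter, averaged 6.78 ± 0.710 CPM at week 5 and 5.53 ± 0.973 CPM at week 6, against 1.78 ± 1.31 CPM on normal diet (1.85 ± 0.40 and 1.56 ± 0.41, adjusted p = 0.000857 and 0.006). By slope alone, Abcc2 and Slco1b2 were called, both negative (-0.07 and -0.20 per week, adjusted p = 0.0117 and 0.00172).

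Of 17 nuclear receptors and other regulators, edgeR called 0 at weeks 1 to 4, where 1, 0, 0 and 1 had an unadjusted p under 0.05. At week 5, Keap1 (-0.31), Nr1i2 (-0.60), which encodes the drug sensor PXR, and Rxra (-0.32), the partner of many nuclear receptors, were lower, with adjusted p between 0.013 and 0.0319. Nfe2l2, the NRF2 gene, was higher at weeks 5 and 6 (0.56 and 0.54, adjusted p = 0.00047 and 0.00104), as was Cux2 (2.57 and 2.54, 0.00484 and 0.00786), a factor known to be higher in female liver, at 1.47 ± 0.365 and 1.42 ± 0.571 CPM, against 0.224 ± 0.252 CPM on normal diet. Hnf4a was lower at week 6 (-0.44 ± 0.15, 0.0283). Ppara was called for its slope alone (-0.15 ± 0.05 per week, 0.026).

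Sex-biased liver genes outside the families were set beside them, since several UGT, SULT and CES genes are sex-biased in mouse liver. Of 15 male-biased genes, 5 were lower at week 4, 11 at week 5 and 10 at week 6, with medians of -0.79, -0.99 and -1.16. They were Cyp7b1, Selenbp2, Nudt7, Elovl3 and Cyp4a12a at all 3 weeks; Cyp2d9, Hsd3b5, Mup3, Slco1a1 and Susd4 at weeks 5 and 6; and C6 at week 5. Cyp7b1, an oxysterol hydroxylase, averaged 80.7 ± 29.2 CPM at week 5, against 271 ± 99.4 CPM on normal diet (-1.74 ± 0.32, adjusted p = 0.00024). Of 15 female-biased genes 5 were tested: Cyp17a1 was lower at week 1 (-3.58 ± 0.60, 0.00214) and week 5 (-1.70 ± 0.56, 0.0226), Cyp4a14 and Cux2 were higher at week 5 (2.17 ± 0.74, 0.0282, for Cyp4a14), and Acot3 was called for its slope alone (0.54 ± 0.14 per week, 0.00453). Whether these changes and those of the 3 families are linked was not tested.

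Within the diet itself, 15 of the 34 genes had a slope over weeks 1 to 6 that was called, all of them negative. Over all genes, 33.9% were called and 14.9% were called with a negative slope. The slope compares only the weekly means of the NASH diet, while the normal-diet libraries still entered the fit. The median slope of the 34 was -0.08 per week, beside -0.01 over all genes. Most negative were Ces4a (-0.96), Ces2b (-0.66), Ugt2b38 (-0.53) and Ugt2b37 (-0.51). Among the 10 genes with the most tags, 9 were called, with slopes from -0.23 for Ugt2b1 to -0.07 for Ugt2b5, and Ces1d was not (-0.08 ± 0.05, adjusted p = 0.187). With library size only, 11 slopes were negative and 1, of Sult1a1, was positive (0.12, adjusted p = 0.0394). Of all genes, 3111 slopes were called positive and 432 negative with this scaling. With the marker score as a term, edgeR called 0 slopes, and 10 had an unadjusted p under 0.05. Calls among all genes were not counted for this fit.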

How the data were processed

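The authors deposited raw, unscaled counts by gene symbol for 25 libraries. Per the labels' protocols libraries were made with a QuantSeq 3' FWD kit, and per the submitters' processing notes reads were checked with FastQC, trimmed with cutadapt and aligned with STAR 2.7.1a to GRCm39. The sources used here do not name the counting tool or the gene annotation. Tags near the 3' end are counted, so genes with shared last exons cannot be separated.

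Libraries were grouped by their labels. Counts were tested in edgeR 4.0.16 (R 4.3.3): genes passing filterByExpr by group (11869 of 37085 symbols), TMM factors, robust quasi-likelihood fit of 1 model of 7 groups with 18 residual degrees of freedom, and F-tests of each week against normal diet and of a straight line over weeks 1 to 6. Standard errors are the absolute log2 change divided by the square root of F. The 60 genes and all lists were chosen with earlier results of these data known. Values per library are given for genes called in at least 3 comparisons or among the 10 with the most counts; every gene called at least once is given with its test, and every called gene of each list is named, except 2 that are not reported here. Promoters come from RefSeq (GRCm38.p6), a build other than that of the counts, and transcript ends from GENCODE M21.

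Totals ran from 5.28e+06 to 1.002e+07 counts, and the median biological coefficient of variation was 0.177. No pair of libraries in a group agreed within sampling noise (chi-squared over degrees of freedom at least 5.77). Alternatives were DESeq2 1.42.0, its size factors, library size only, limma 3.58.1 voom, no filter, 5 CPM in 3 libraries, only the groups compared, a replicate block, the marker score as a term (the mean of 3 list means of log2 CPM), leaving out normal-diet libraries 1 and 5, and leaving out each library. Scaling to the summed hepatocyte markers was chosen after seeing the data. The fit was tested on simulated data.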

Additional observations from a re-analysis of the deposited data

Results flagged for a closer look

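Single libraries stood far from their group in 10 of 102 combinations (9.80%), each of 1 gene and 1 group of 4 or 5 libraries. Chance alone marks about 1 in 20 such combinations, but they share the same libraries and are not independent. On normal diet, Ces1f and Ces1g were lowest in library 3 (141 and 44.2 CPM, the others 189 to 199 and 86.7 to 101 CPM), and Ces2g was highest in the same library (46.9 CPM, the others 32.0 to 33.8 CPM). Library 5 was highest for Ugt1a7c (4.60 CPM, the others 1.08 to 1.56 CPM) and lowest for Ugt2b38 (11.0 CPM, the others 46.0 to 55.9 CPM), and library 2 was lowest for Ugt3a1 (0.690 CPM, the others 1.27 to 1.40 CPM). At week 1, Sult1c2 was lowest in library 1 (1.76 CPM, the others 3.29 to 3.51 CPM) and Ugt2b1 in library 3 (798 CPM, the others 1139.8 to 1175 CPM). At week 3, library 1 was lowest for Ces1f (84.5 CPM, the others 149 to 151 CPM) and highest for Sult1d1 (197 CPM, the others 109.9 to 114 CPM).

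The change on the diet differed between weeks for 15 genes, by the test of a straight line over weeks 1 to 6. In log2 units per week the slopes were -0.96 for Ces4a, -0.66 for Ces2b, -0.53 for Ugt2b38, -0.51 for Ugt2b37, -0.23 for Ugt2b1, -0.21 for Sult2a8, -0.18 for Ces3b, -0.17 for Ces2a, -0.17 for Ces3a, -0.15 for Ugt2b34, -0.12 for Sult1b1, -0.12 for Ugt2a3, -0.09 for Ces1c, -0.08 for Ugt2b36 and -0.07 for Ugt2b5.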

How the results depend on the processing

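Of the 34 genes, 2, 1, 3, 6, 19 and 17 were called at weeks 1 to 6 and 15 by slope. At week 1, DESeq2 called 6, hepatocyte scaling 6 and a fit of only the groups compared 1. At week 3, DESeq2 called 5. Of all genes, DESeq2 called 265 at week 1 and 217 at week 3, where the main fit called 142 and 101. At week 4 the count among the 34 was 3 without a filter, 3 with hepatocyte scaling and 2 with the marker score. It was 2 without normal-diet libraries 1 and 5, and 1 with only the groups compared. At week 5 it was 9 with library size only, 7 with hepatocyte scaling and 1 with the marker score. At week 6 it was 11 without normal-diet libraries 1 and 5, 10 with library size only, 5 with hepatocyte scaling and 1 with the marker score, which left 0 slopes. With library size only, 4144 and 3491 of all genes were called at weeks 5 and 6, against 4197 and 3175 in the main fit. For the other settings, and for the fits below with a library left out or a replicate block, calls among all genes were not counted. The cause of these differences was not tested. With the marker score, Ugt1a5 at week 5 and the slopes of Sult1b1 and Ugt2b36 turned to 0.62, 0.05 and 0.01.

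Leaving out 1 library gave 2 to 5 calls at week 1 (5 without normal-diet library 3, 4 without week 3 library 1), 1 to 2 at week 2 (2 without normal-diet library 3), 2 to 4 at week 3, 2 to 8 at week 4 (8 without normal-diet library 3, 3 without normal-diet library 1 or 2, 2 without week 4 library 1 or 2), 11 to 21 at week 5 (11 without week 5 library 2), 11 to 19 at week 6 (11 without week 6 library 2) and 12 to 16 slopes. The replicate block gave 2, 1, 2, 4, 16 and 14 calls at weeks 1 to 6 and 14 slopes. Whether equal replicate numbers pair libraries is not stated. The 66 pairs of the same number had correlations of their deviations from -0.44 to 0.41. Their median was -0.01, beside -0.00 for 200 other pairs. In groups this small such correlations cannot settle whether libraries were paired. Of 63 calls checked 2261 times, 1972 checks kept the call and direction, 286 kept only the direction and 3 turned it. Depth limits the genes at a few CPM, such as Ces2b, Ces4a, Ugt1a5 and Sult1e1.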
